A study of Mus musculus with 37 samples.

Results

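The microRNAs described here are the miR-30 family, given by the 8 mature products mmu-miR-30a-5p, mmu-miR-30b-5p, mmu-miR-30c-5p, mmu-miR-30d-5p, mmu-miR-30e-5p, mmu-miR-30a-3p, mmu-miR-30d-3p and mmu-miR-30e-3p, where mmu stands for mouse. They are 8 of 1915 mature microRNAs counted by small RNA sequencing of mouse whole blood. The 8 names were chosen with earlier results of these data known, among them age differences of the family's 5p arms, so the levels and fold changes by age are a description. No p-value is printed for them, and where members passed a threshold they are counted beside the share of all microRNAs that did, which lends them no support. The 37 libraries came from male wild-type C57BL/6 mice that were housed singly, were labelled as learning and went through rounds of water maze training, a test of spatial memory. Blood was drawn from the orbital sinus (9 libraries at 12 months, 12 at 13.5, 5 at 15 and 11 at 16.5 months of age), per the study's methods before any behavioural test at the first age and a day after a memory test at the others. No untrained mice of the later ages were among these libraries, so age and the number of training rounds cannot be told apart, and neither can age and any handling or sequencing run that followed it. The sampling was longitudinal, so ages can share mice, but the labels do not tie a library number to a mouse, and p-values measure the spread between libraries.

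A microRNA precursor is a hairpin whose 5p and 3p arms are cut out by Drosha and Dicer. One arm of the duplex is usually kept in an Argonaute protein and the other is degraded, and the kept strand binds messenger RNAs mainly through its seed, the bases 2 to 8 counted from the 5′ end. Members of the miR-30 family share the seed of the 5p arm and can repress overlapping messenger RNAs, and the family is known for roles in autophagy, in epithelial differentiation and in the heart, where it acts on connective tissue growth factor. Whole blood RNA comes largely from red cells, with smaller parts from leukocytes and platelets, and in such a bulk sample fewer cells of a type and less RNA per cell cannot be told apart.

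The mature sequences show how close the members are, and which reads can be told apart. RefSeq on GRCm38.p6 gave 5 of the 8 members. The seed is in capitals.
miR-30a-5p: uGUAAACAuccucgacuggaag
miR-30e-5p: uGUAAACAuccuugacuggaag
miR-30c-5p: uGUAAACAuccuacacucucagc
miR-30a-3p: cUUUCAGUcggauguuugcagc
miR-30e-3p: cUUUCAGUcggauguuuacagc
The 5p arms of miR-30a, miR-30c and miR-30e were identical over their first 12 bases. Counted from the 5′ end, miR-30a-5p and miR-30e-5p differed by C13U alone, whereas miR-30a-5p and miR-30c-5p differed by 5 of 22 bases. The 3p arms of miR-30a and miR-30e carried a different seed from the 5p arms and differed from each other by G18A alone, so they were identical over 17 bases. Reads of miR-30a and miR-30e are therefore told apart by a single base in either arm. The 3p arms of the miR-30c precursors and 2 relatives are shown because they share or lack these seeds.
miR-30c-1-3p: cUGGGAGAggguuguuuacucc
miR-30c-2-3p: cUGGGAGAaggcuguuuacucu
miR-384-5p: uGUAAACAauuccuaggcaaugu
miR-30f: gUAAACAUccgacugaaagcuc
In the sequence table of 1679 mature names, the seed GUAAACA was found in miR-30a-5p, miR-30c-5p, miR-30e-5p and miR-384-5p, and the seed UUUCAGU in miR-30a-3p and miR-30e-3p. The members miR-30b-5p, miR-30d-5p and miR-30d-3p were not among these names, so their seeds could not be checked. The sequence of miR-30f starts at what is the second base of the other 5p arms, so its own seed window is shifted by 1 base.

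The located genes formed pairs (GRCm38.p6). Mir30a lay on the plus strand at chr1:23272269-23272339, outside any other annotated gene of GENCODE vM21, and Mir30c-2 lay 19361 bases downstream at chr1:23291701-23291784, within an exon of the lincRNA Gm27028. Mir30e at chr4:120772606-120772697 and Mir30c-1 at chr4:120769534-120769622 both lay in introns of Nfyc, which encodes a subunit of the transcription factor NF-Y, on its minus strand and 2983 bases apart. Mature miR-30c-5p can come from both Mir30c-1 and Mir30c-2. Its 2 rows in the count table differed in 10 libraries and by at most 2 reads, so the counts do not separate the loci, and the first row was used.

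The libraries were dominated by miR-486a-5p, a microRNA of red cells. Total counts over the first rows were between 2619533 and 20268095 per library, and once both miR-486 5p products were set aside between 140292 and 1131713 reads were left. Levels are given as CPM, which are reads scaled to a common library total, here corrected by the trimmed mean of M-values (TMM). The TMM factors ranged from 0.309 to 1.97, and the library with the lowest factor was replicate 1 at 13.5 months. All 3 myeloid markers and 5 of 6 erythrocyte markers had reads in every library, as did 2 of 3 lymphocyte markers, so the libraries carried the markers of blood. Reads in every library were not particular to blood markers, since 3 of 5 epithelial and 1 of 3 muscle markers also had them. The summed levels of these 2 lists were low, with medians of 6.09 and 5.92 CPM at 12 months. The platelet and endothelial markers and those of neurons had medians under 10 reads over all libraries. Of the liver markers, miR-192-5p had reads in every library while the defining miR-122-5p averaged 0.0700 CPM at 12 months and 0.0541 CPM at 13.5 months.

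The family was carried by its 5p arms. Summed over the libraries, miR-30d-5p had 450728 reads, miR-30c-5p 293180, miR-30a-5p 262910, miR-30e-5p 74822 and miR-30b-5p 27207. The 3p arms were far rarer, with 5264 reads of miR-30a-3p, 3564 of miR-30e-3p and 211 of miR-30d-3p. By mean CPM over all libraries, miR-30d-5p ranked 11 among the 1915 microRNAs and miR-30b-5p ranked 51. Of the members, 6 of 8 exceeded 100 reads in 50% or more of the libraries and entered the age fit of 87 microRNAs. miR-30e-3p and miR-30d-3p did not pass that filter and are described by their counts and CPM, and by a fit with a lower filter. The other listed products were at the edge of detection, with 356 reads of miR-30c-2-3p, 160 of miR-30c-1-3p and 20 of miR-30b-3p over all libraries. miR-30f had 2 reads, both in 1 library, and miR-384-5p, which shares the 5p seed, had 0 reads in all 37 libraries.

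The order of the 5p arms was similar at each age. miR-30d-5p was the highest of the 5 in 32 of 37 libraries and miR-30c-5p in the other 5, while miR-30b-5p was the lowest in all 37. At 12 months the mean CPM was 1305 ± 173 for miR-30d-5p, 966 ± 230 for miR-30c-5p and 825 ± 204 for miR-30a-5p (SD, n = 9). These neighbours overlapped, since miR-30d-5p exceeded miR-30c-5p in 7 of 9 libraries and miR-30c-5p exceeded miR-30a-5p in 6 of 9. Below them, miR-30e-5p at 276 ± 46 CPM was lower than miR-30a-5p and higher than miR-30b-5p, at 121 ± 47 CPM, in 9 of 9 libraries each. At 15 months miR-30a-5p stood above miR-30c-5p in 4 of 5 libraries, and at 16.5 months miR-30c-5p stood above miR-30a-5p in 11 of 11. CPM values of different microRNAs reflect reads, which also depend on how well each sequence is ligated and amplified.

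The 5p arms of miR-30a, miR-30b, miR-30c and miR-30e were lower at 13.5 months than at the ages before and after, and miR-30d-5p much less so. In the edgeR fit, 4 of the 6 members tested passed the age test, beside 58.6% of all 87 microRNAs, and these 4 were the ones named. The same 4 were lower at 13.5 than at 12 months, where 23.0% of all microRNAs were called lower, and higher at 15 than at 13.5 months, where 16.1% were called higher. Since the members were chosen on this contrast, nothing is read from these shares. With the plain library total and no TMM, 3 members were called lower, beside 9.20% of all microRNAs, and 0 higher, beside 0%. The count of the age test also depended on the fit. DESeq2 called 5 members, miR-30a-3p among them, beside 57 of 87 microRNAs. With 1 hidden factor of unwanted variation in the fit, all 6 were called, miR-30d-5p among them. Of the 87 microRNAs, edgeR then called 71 and DESeq2 72. Over the 5p arms, the median log2 fold change was -0.82 for 13.5 against 12 months, beside 0.11 over all 87 microRNAs, and 0.78 for 15 against 13.5 months, beside 0.08.

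**Figure D1:**
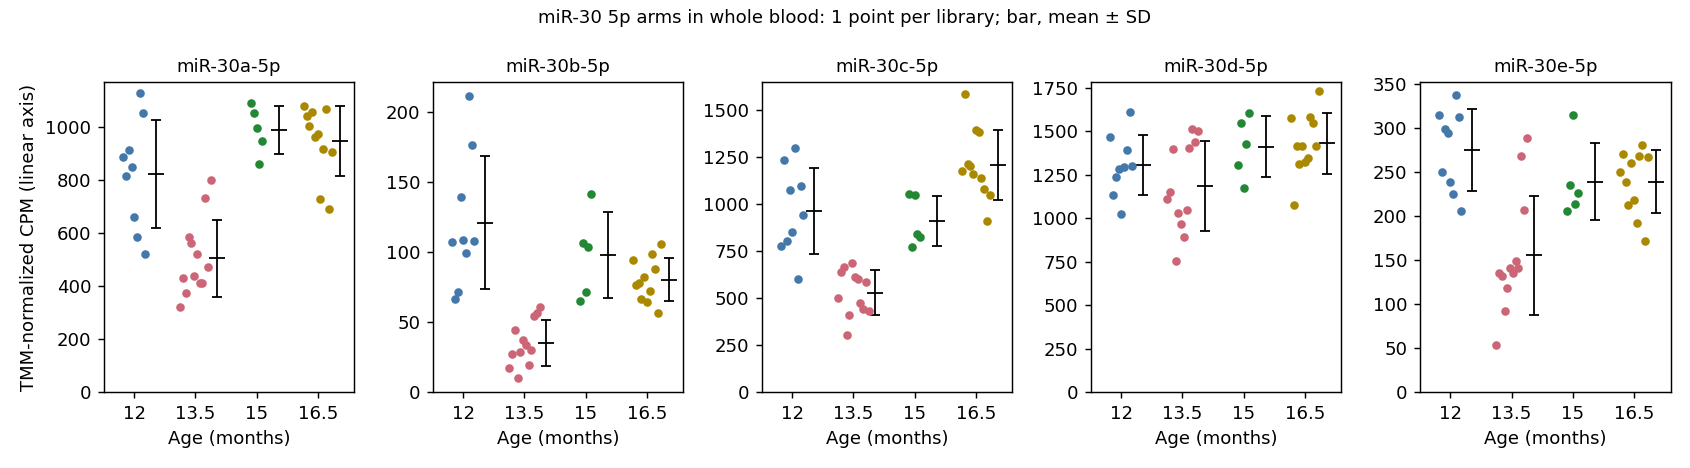
TMM-normalized CPM (linear axes from 0) of the 5 miR-30 5p arms against age in months. Each point is 1 library and the black bar is the mean ± SD. miR-30b-5p at 13.5 months lay between 10.04 and 60.7 CPM, below every library at 12 months, while miR-30d-5p overlapped between all ages.

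miR-30b-5p, the least abundant 5p arm, differed most. At 12 months its level had a lowest value of 66.6, a median of 108 and a highest value of 211 CPM. At 13.5 months the lowest, median and highest values were 10.04, 31.8 and 60.7 CPM, so the ranges did not overlap. It was the only one of the 6 members with every 13.5-month library below every 12-month library, which held for 2.30% of the 87 microRNAs. The 15-month libraries held 65.3, 107, 71.8, 104 and 141.4 CPM, for replicates 1 to 5, all above the 13.5-month range. At 16.5 months it was between 56.2 and 106 CPM with a median of 78.2. The log2 fold change was -1.78 ± 0.23 (SE) for 13.5 against 12 months and 1.48 ± 0.27 for 15 against 13.5 months, and for 16.5 against 12 months it was -0.59 ± 0.24. The level at 16.5 months thus lay between those at 13.5 and 12 months, but the last comparison did not pass the threshold. Depth behind these values was low at 13.5 months, where replicate 1 held 23 reads and replicate 4 held 29.

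miR-30c-5p, made from both Mir30c loci, was between 603 and 1301 CPM at 12 months with a median of 946. At 13.5 months it was between 305 and 686 CPM with a median of 542. The 15-month values were 1054, 774, 1051, 844 and 826 CPM, and at 16.5 months they ran from 913 to 1585 with a median of 1179 CPM. Every 15-month library was therefore above every 13.5-month library, while the 12- and 13.5-month ranges overlapped. The log2 fold change was -0.87 ± 0.13 for 13.5 against 12 months and 0.78 ± 0.16 for 15 against 13.5 months. It was the 5p arm with the highest mean at 16.5 relative to 12 months, at 0.33 ± 0.14 on the log2 scale, which did not pass the threshold.

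miR-30a-5p ran from 521 to 1130 CPM at 12 months with a median of 851. At 13.5 months it ran from 320 to 801 CPM with a median of 456, and its 2 highest libraries were replicate 12 at 801 and replicate 10 at 734 CPM. In the 15-month libraries it was at 1094, 1052, 996, 861 and 948 CPM, all above the 13.5-month range, and at 16.5 months it ran from 692 to 1080 CPM with a median of 974. miR-30a-5p, miR-30b-5p and miR-30c-5p were the 3 members with every 15-month library above every 13.5-month one, which held for 3.45% of the 87 microRNAs. The log2 fold change of miR-30a-5p was -0.71 ± 0.14 for 13.5 against 12 months and 0.97 ± 0.17 for 15 against 13.5 months.

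miR-30e-5p, which differs from miR-30a-5p by C13U, ran from 205.9 to 338 CPM at 12 months with a median of 295. At 13.5 months it ran from 53.9 to 289 CPM with a median of 138. Replicates 10, 11 and 12 of that age held 268, 208 and 289 CPM, inside the 12-month range, and the other 9 libraries held at most 149 CPM. The 15-month values were 205.9, 236, 314, 214 and 226 CPM, and at 16.5 months they ran from 172 to 281 CPM with a median of 250. The log2 fold change was -0.82 ± 0.18 for 13.5 against 12 months. For 15 against 13.5 months it was 0.62 ± 0.21, and this call was lost when any one of the 15-month libraries or replicate 1 at 13.5 months was left out, leaving 3 members higher in place of 4. The call was also lost with the total outside miR-486, with all rows of a microRNA summed, and with a lower filter or none. It was kept when the libraries with few reads outside miR-486 were left out together. With library totals that keep miR-486 and no TMM, the log2 fold change was -0.03.

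miR-30d-5p, the most abundant arm, overlapped between all ages. Its medians over the 4 ages, from youngest to oldest, were 1297, 1129, 1426 and 1414 CPM. At 13.5 months it ranged from 757 to 1511 CPM, and at 15 months the libraries held 1308, 1545, 1173, 1426 and 1604 CPM. The log2 fold change was -0.14 ± 0.11 for 13.5 against 12 months and 0.25 ± 0.13 for 15 against 13.5 months. Neither passed the threshold. With each library in turn as TMM reference the first ran from -0.21 to 0.11, so its sign depended on the reference, and with the plain library total the second was -0.30.

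By edgeR no member was called between 15 and 16.5 months or between the first and last age. That is, 0 of the 6 members passed the threshold for 16.5 against 15 months, beside 3.45% of all microRNAs, and 0 of 6 for 16.5 against 12 months, beside 19.5%. At an unadjusted p under 0.05, 1 member (miR-30c-5p) was counted in the first comparison and 2 members (miR-30b-5p, miR-30c-5p) in the second. DESeq2 called 0 members in the first, beside 4.6% of all microRNAs, and 2 in the second (miR-30b-5p and miR-30c-5p), beside 23.0%. The counts of 0 also changed when libraries were left out of the edgeR fit. Without replicate 1, 3 or 5 at 15 months or replicate 1 at 13.5 months, miR-30c-5p was called for 16.5 against 15 months, where 5 to 7 of 88 microRNAs were called. Without any one 15-month library or replicate 1 at 13.5 months, 1 or 2 members were called for 16.5 against 12 months, where 17 to 23 of 87 or 88 were called, although none of these libraries is in that comparison.

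The 3p arms of miR-30a and miR-30e were not lower at 13.5 than at 12 months in mean or median. miR-30a-3p had a median of 13.9 CPM at 12 months (7.90 to 19.2) and of 16.7 CPM at 13.5 months (12.1 to 26.6). The 15-month libraries held 12.9, 18.3, 13.0, 16.2 and 16.2 CPM, and at 16.5 months the median was 14.4 CPM (6.16 to 17.9). The ages overlapped throughout, and the log2 fold change for 13.5 against 12 months was 0.38 ± 0.16, which did not pass the threshold. It did pass when any one of the 15-month libraries or replicate 1 at 13.5 months was left out, and with DESeq2 or RLE scaling, among other settings.

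miR-30e-3p, whose sequence differs from miR-30a-3p by G18A, was higher at the later ages. Its median was 7.27 CPM at 12 months (4.52 to 11.5) and 8.82 CPM at 13.5 months (5.31 to 14.6). At 15 months it stood at 10.8, 15.1, 12.2, 11.5 and 14.5 CPM, and at 16.5 months the median was 13.1 CPM (8.48 to 14.8). The mean at 16.5 months was 1.66 times that at 12 months, with overlapping ranges. In a fit of the 323 microRNAs that exceeded 1 read in 50% or more of the libraries, its log2 fold change for 16.5 against 12 months was 0.77 ± 0.18. It was the 1 of 8 members called in that comparison, beside 14.2% of the 323. Counts per library ran from 7 to 281 reads.

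miR-30d-3p was near the limit of detection, with 0 to 27 reads per library. Its mean was 0.67 ± 0.48 CPM at 12 months (SD, n = 9), 0.41 ± 0.21 at 13.5 months (n = 12), 0.81 ± 0.45 at 15 months (n = 5) and 0.56 ± 0.32 at 16.5 months (n = 11). It had 0 reads in 1 library at 12 months and in 1 at 16.5 months. In the fit with the lower filter its log2 fold change was -0.67 ± 0.38 for 13.5 against 12 months and 1.03 ± 0.42 for 15 against 13.5 months, and neither was called.

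**Figure D2:**
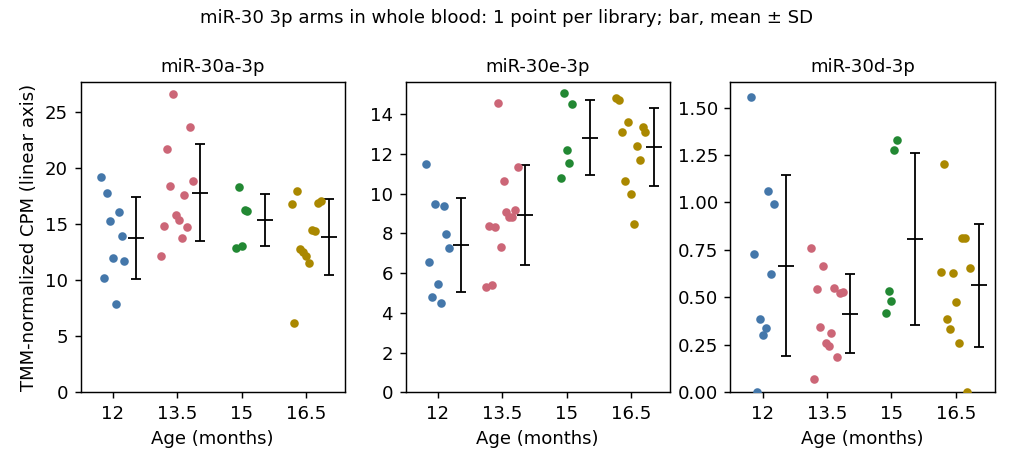
TMM-normalized CPM (linear axes from 0) of the miR-30a, miR-30e and miR-30d 3p arms against age in months, with 1 point per library and the mean ± SD as a bar. miR-30e-3p has a mean of 7.43 CPM at 12 months and of 12.4 CPM at 16.5 months, whereas miR-30a-3p lies between means of 13.8 and 17.8 CPM and miR-30d-3p is at most 1.55 CPM in any library.

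The ratio of the arms of a precursor is taken within a library and so does not depend on how libraries are scaled. It was computed as the log2 of 5p over 3p reads with 0.5 added to each, for all 35 precursors with more than 10 reads of both arms in at least 50% of libraries. Across the 35, 20 favoured the 5p arm and the median log2 ratio was 1.23. Both miR-30 precursors that could be tested were far above this, with miR-30a ranking 5 and miR-30e ranking 8. The precursor miR-30d was not tested, because of the low counts of its 3p arm.

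The arm ratio of miR-30a was lower at 13.5 months alone. As a geometric mean, the 5p arm had 59.8 times the reads of the 3p arm at 12 months and 28.0 times at 13.5 months. At 15 and at 16.5 months it had 64.7 and 69.8 times the reads. On the log2 scale the lowest, median and highest libraries were 5.46, 5.79 and 6.31 at 12 months and 4.10, 4.83 and 5.63 at 13.5 months. The 15-month libraries were at 6.38, 5.84, 6.25, 5.73 and 5.87, all above the 13.5-month range, and the 16.5-month libraries ran from 5.34 to 7.39 with a median of 6.01. Of the 13.5-month libraries, only replicate 10 at 5.63 lay within the 12-month range. The highest of all was replicate 2 at 16.5 months, which also held the lowest miR-30a-3p level, 6.16 CPM. The difference was -1.09 ± 0.21 (SE) for 13.5 against 12 months and 1.21 ± 0.25 for 15 against 13.5 months. How many of the 35 precursors had every 15-month library above every 13.5-month one was not counted.

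The arm ratio of miR-30e was lower from 13.5 months on. The 5p arm had 37.8 times the reads of the 3p arm at 12 months, and 16.3, 18.5 and 19.3 times at the 3 later ages in turn. The log2 ratio ran from 4.77 to 5.90 at 12 months with a median of 5.23, and from 3.02 to 4.91 at 13.5 months with a median of 4.02. The 15-month libraries were at 4.22, 3.96, 4.68, 4.21 and 3.96, and the 16.5-month libraries ran from 3.67 to 4.58. Every library at 15 and 16.5 months was below every library at 12 months. How many of the 35 precursors did the same was not counted. The difference was -1.21 ± 0.21 for 13.5 against 12 months, 0.18 ± 0.25 for 15 against 13.5 months and -0.97 ± 0.21 for 16.5 against 12 months.

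**Figure D3:**
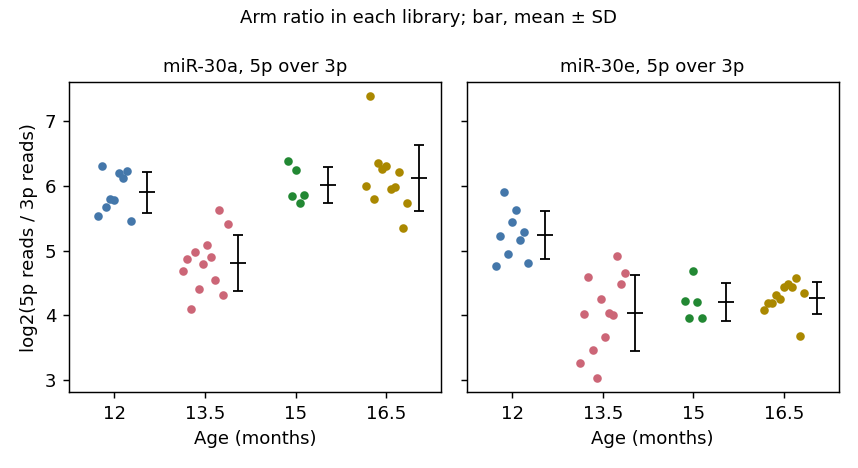
The log2 ratio of 5p to 3p reads of miR-30a and miR-30e (shared axis) against age in months, 1 point per library with the mean ± SD as a bar. miR-30a is lowest at 13.5 months (mean 4.81) and back near its first level at 15 months (6.01), while miR-30e goes from a mean of 5.24 at 12 months to 4.03 at 13.5 months and stays at 4.21 and 4.27.

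With limma's moderated F-test over the 35 precursors, the arm ratio changed with age for miR-30a (adjusted p = 2.73e-06, F = 18.5) and for miR-30e (adjusted p = 6.08e-05, F = 12.7). Of all 35 precursors, 45.7% were called. The 5p arms entered this set with their age differences known, so these p-values are not independent of the choice of members. The adjusted p ran from 3.31e-07 to 7.17e-05 for miR-30a over 13 alternatives and from 3.31e-05 to 0.00104 for miR-30e over 12. Among the 33 other precursors the difference for 13.5 against 12 months was between -1.01 and 1.51 with a median of -0.20, and 20 of them were below 0. The spread within an age was 0.42 log2 units for both miR-30 ratios, beside a median of 0.79 for the others.

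The arm ratios of the precursors lay further apart after 13.5 months than before. The log2 arm ratio of miR-30a exceeded that of miR-30e by 0.66 ± 0.41 at 12 months (SD, n = 9) and by 0.78 ± 0.63 at 13.5 months (n = 12). By 15 months the gap was 1.81 ± 0.26 (n = 5) and at 16.5 months 1.86 ± 0.50 (n = 11). miR-30a was the higher in every library of these ages, and already in 8 of 9 at 12 months and 10 of 12 at 13.5 months. Exact two-sided permutation tests over libraries were run on the gap. It grew by 1.03 from 13.5 to 15 months (p = 0.00339, adjusted p = 0.00679). From 12 to 16.5 months it grew by 1.20 (p = 5.95e-06, adjusted p = 2.38e-05). It differed by 0.12 between 13.5 and 12 months (p = 0.628, adjusted p = 0.837) and by 0.05 between 16.5 and 15 months (p = 0.872, adjusted p = 0.872). These 4 comparisons were chosen after the ratios had been seen in the same libraries, so their p-values lend the gap no support. Gaps between other precursors were not tested. The gap equals the log2 ratio of miR-30a-5p to miR-30e-5p minus that of miR-30a-3p to miR-30e-3p. These ratios, given below, are therefore not results separate from the gap.

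For miR-30d the arms are given as pooled reads. The 3p arm made up 0.0558% of the reads of both arms at 12 months (95% exact Clopper-Pearson interval 0.0413 to 0.0738%) and 0.0330% at 13.5 months (0.0239 to 0.0445%). It made up 0.0689% at 15 months (0.0508 to 0.0913%) and 0.0435% at 16.5 months (0.0340 to 0.0549%). These intervals cover counting error only, since copies made by PCR are not separate molecules. Over libraries the share was 0.050 ± 0.033% at 12 months (SD, n = 9) and 0.036 ± 0.018% at 13.5 months (n = 12), so these ages differed by less than the spread between libraries. It was 0.056 ± 0.028% at 15 months (n = 5) and 0.040 ± 0.028% at 16.5 months (n = 11), and the ranges of all ages overlapped. For comparison, the pooled 3p share of Mir30a was 1.64% at 12 months and 3.52% at 13.5 months, and that of Mir30e was 2.68% and 5.61%.

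The paralogs were then compared with each other inside each library. The 5p arms together made up 6.15 ± 0.53% of the reads that were not miR-486 at 12 months (SD, n = 9) and 4.08 ± 1.27% at 13.5 months (n = 12). The share was 6.62 ± 0.46% at 15 months (n = 5) and 6.61 ± 0.68% in the last group (n = 11). At 13.5 months replicate 1 held the lowest share, 1.62%, and replicates 10, 11 and 12 the highest, 5.79, 5.25 and 5.58%. Of the reads of the 5p arms, miR-30d-5p held 37.4 ± 3.0% at 12 months and 48.9 ± 5.1% at 13.5 months, and 38.7 ± 4.6% and 36.7 ± 4.6% at the later ages. The share of miR-30b-5p was 3.43 ± 1.15% at 12 months and 1.39 ± 0.47% at 13.5 months, and later 2.68 ± 0.82% and 2.05 ± 0.31%. At 13.5 months the family reads thus leaned towards miR-30d-5p, with 40.7 to 57.1% per library, beside 32.4 to 42.2% at 12 months.

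**Figure D4:**
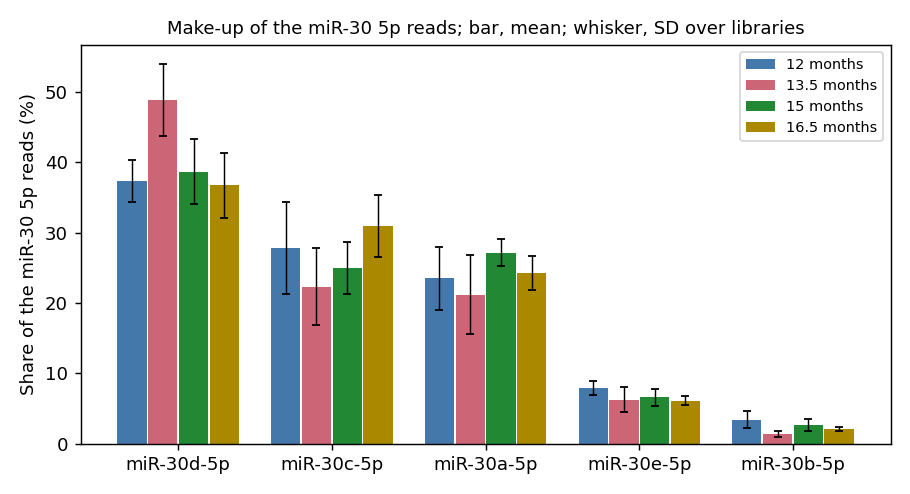
Share of the reads of the 5 miR-30 5p arms (percent, from 0) held by each arm, with bars for the mean of each age and whiskers for the SD over libraries. miR-30d-5p holds 48.9% at 13.5 months and between 36.7 and 38.7% at the other ages, and miR-30b-5p holds 3.43% at 12 and 1.39% at 13.5 months.

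Of the 11 pairs of miR-30 members of one arm that could be tested, 9 changed their ratio with age in limma's moderated F-test. Of the 43 other pairs of microRNAs that share a name number and an arm, 15 were called. Over all 54 pairs, these 9 included, the share was 44.4%. The pairs of 5p arms are all ratios of the same 5 levels, so they are not separate results. The same reservation on the choice of members holds for these p-values. A log2 ratio of 5p arms is the difference of their log2 levels, and these arms were chosen with their age differences known. The adjusted p-values of the 5p pairs, here and below, therefore lend no support to an age difference. The smallest adjusted p was that of miR-30b-5p to miR-30d-5p (1.95e-08). The log2 ratio ran from -4.10 to -2.72 at 12 months with a median of -3.59, and from -6.21 to -4.63 at 13.5 months with a median of -5.06, so the ranges did not overlap. It averaged -3.90 at 15 months and -4.17 at 16.5 months. How many of the 54 pairs had ranges apart at 12 and 13.5 months was not counted. The difference was -1.70 ± 0.19 (SE) for 13.5 against 12 months, 1.31 ± 0.22 for 15 against 13.5 months and -0.66 ± 0.19 for 16.5 against 12 months.

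miR-30d-5p was the paralog against which each of the others was lower at 13.5 months. Against it, miR-30a-5p differed by -0.55 ± 0.16 for 13.5 against 12 months (adjusted p of the age test 0.00159) and miR-30c-5p by -0.71 ± 0.18 (0.000437). The ratio of miR-30d-5p to miR-30e-5p was 0.77 ± 0.16 higher (adjusted p = 0.00205). For 15 against 13.5 months these differences had the opposite sign, at 0.74 ± 0.20, 0.53 ± 0.22 and -0.45 ± 0.20.

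miR-30b-5p was also lower than its other paralogs at 13.5 months. Its ratio to miR-30c-5p differed by -0.99 ± 0.27 (adjusted p = 0.00729) and its ratio to miR-30e-5p by -0.93 ± 0.19 (adjusted p = 0.000558), while the ratio of miR-30a-5p to miR-30b-5p was 1.14 ± 0.23 higher (adjusted p = 0.0016). At 16.5 against 12 months, miR-30b-5p to miR-30c-5p was still at -0.87 ± 0.27 and miR-30a-5p to miR-30b-5p at 0.75 ± 0.24. Without any filter on low counts, the adjusted p of miR-30b-5p to miR-30c-5p was 0.0541.

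Among the remaining pairs of 5p arms, 2 were not called. miR-30a-5p to miR-30c-5p did not pass the threshold (adjusted p = 0.339), with a difference of 0.15 ± 0.22 for 13.5 against 12 months, and neither did miR-30c-5p to miR-30e-5p (adjusted p = 0.126), with 0.07 ± 0.23. The latter pair passed with 1 hidden factor of unwanted variation in the fit (adjusted p = 0.00493) or without replicate 1 at 13.5 months (0.0352), and the difference was then -0.22 or -0.06. miR-30a-5p to miR-30e-5p, the pair separated by C13U, went from a mean log2 ratio of 1.56 ± 0.15 at 12 months (SD, n = 9) to 1.78 ± 0.47 at 13.5 months (n = 12), 2.06 ± 0.27 at 15 months (n = 5) and 1.99 ± 0.17 at 16.5 months (n = 11), with an adjusted p of 0.0342. This call was lost without replicate 2 at 15 months (adjusted p = 0.0505) and without a filter on low counts (0.285).

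The 3p arms of miR-30a and miR-30e were in a lower ratio at the last 2 ages than before. Their log2 ratio averaged 0.90 ± 0.38 at 12 months (SD, n = 9) and 0.997 ± 0.397 at 13.5 months (n = 12). It was 0.25 ± 0.15 at 15 months (n = 5) and 0.13 ± 0.48 at 16.5 months (n = 11), where replicate 2 held the lowest value, -1.25. The adjusted p was 0.000278, and the difference was 0.10 ± 0.18 for 13.5 against 12 months, -0.74 ± 0.21 for 15 against 13.5 months and -0.76 ± 0.18 for 16.5 against 12 months. Depth behind this pair was between 7 and 360 reads per arm and library.

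**Figure D5:**
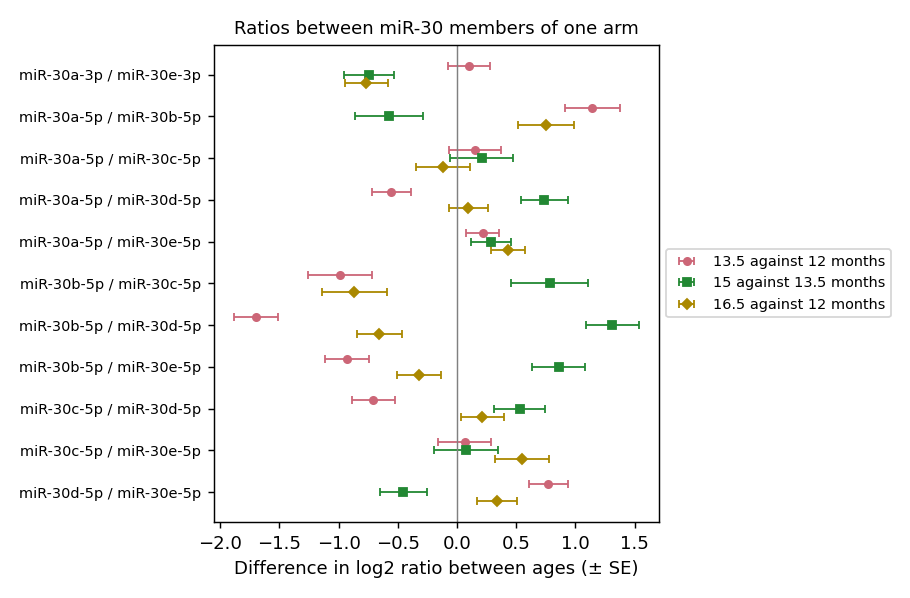
Difference in the log2 ratio of 11 pairs of miR-30 members between ages, with points for 13.5 against 12, 15 against 13.5 and 16.5 against 12 months and whiskers for the SE. The pair miR-30b-5p / miR-30d-5p lies farthest from 0 at 13.5 against 12 months (-1.70), and miR-30a-3p / miR-30e-3p lies near 0 there (0.10) but at -0.74 for 15 against 13.5 months.

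Markers of blood cells moved over the same ages. Both myeloid markers that were tested were lower at 13.5 than at 12 months. The summed level of the list of 3, carried by miR-142a-5p, was between 2384 and 3472 CPM at 12 months and between 937.5 and 3184 CPM at 13.5 months. Of the 5 erythrocyte markers tested, 2 were lower and 1 was higher. miR-451a, which marks red cells, had medians of 5918 and 2093 CPM, whereas miR-92a-3p of the same list had medians of 6157 and 13724 CPM. The erythrocyte sum, carried by miR-486a-5p, had medians of 385700 and 434300 CPM. Neither lymphocyte marker that was tested was called, and miR-192-5p was lower. For 15 against 13.5 months, 0 of the 2 myeloid and 0 of the 2 lymphocyte markers were called, 1 erythrocyte marker was higher and 1 lower, and miR-192-5p was higher. The part of these shifts in the miR-30 values was not tested.

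By the mean log2(CPM + 1) at each of the 4 ages, centred over the ages, the microRNAs outside the family with the most similar course differed between members, out of 81 candidates. The nearest to miR-30a-5p was miR-484 (root mean square difference 0.12), followed by miR-26a-5p (0.13) and miR-186-5p (0.15). For miR-30c-5p they were miR-186-5p (0.06), miR-425-5p (0.12) and miR-26a-5p (0.18), and for miR-30e-5p they were miR-19b-3p (0.10), miR-142a-5p (0.12) and miR-140-3p (0.12). miR-30b-5p was nearest to miR-144-5p (0.21) and miR-451a (0.23), which are made from one cluster in red cells, and to miR-19b-3p (0.26). miR-30d-5p was nearest to miR-21a-5p (0.06), miR-1839-5p (0.08) and miR-27b-3p (0.09). miR-144-5p had medians of 20.0, 4.40, 18.5 and 17.6 CPM over the ages, and miR-451a 5918, 2093, 5774 and 4283 CPM.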

How the data were processed

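Small RNA sequencing of whole blood from 37 libraries was analysed. Per the labels and the methods of the study, the authors trimmed adapters with cutadapt, checked reads with FastQC 0.11.5 and counted them with miRDeep2, allowing no mismatch, on mm10, the same assembly as GRCm38, against miRBase. The authors deposited raw read counts per mature microRNA and precursor (2241 rows, 1915 names). The authors also deposited a normalized signal of 337 microRNAs, in which 100% of values equalled the first row of a microRNA times one factor per library (tolerance 1e-06, relative), so first rows were used. Of the value columns, 0 were left out.

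Samples were grouped by labelled age. The members and lists were chosen with earlier results of these data known. The 87 microRNAs that exceeded 100 reads in 50% or more of the libraries were fitted with edgeR 4.0.16 in R 4.3.3 (library size the total of first rows, TMM, quasi-likelihood F-test, Benjamini-Hochberg over all 87, threshold 0.05), with standard errors as the log2 fold change over the square root of F. Ratios of 5p to 3p arms and of same-number members of one arm were fitted with limma 3.58.1 over all such pairs (pseudocount 0.5, both above 10 reads in 50% or more of the libraries). Exact permutation tests were used for the gap between the miR-30a and miR-30e ratios, and intervals of shares were 95% Clopper-Pearson. Both fits were tested on simulated data. The biological coefficient of variation was 0.405. Named were the 8 members, 5 other family or seed relatives, the 3 microRNAs nearest in course to each 5p arm, and marker microRNAs by list. The alternatives covered the tool (DESeq2 1.42.0), the scaling, the filter, the rows, hidden factors computed from the RUVs formula, the replicate number as a block, the pseudocount and libraries left out. How many such factors the authors removed is not given in the sources used here. Leaving out replicate 1 at 13.5 months, or libraries with few reads outside miR-486, and changing the TMM reference were chosen after seeing the data.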

Additional observations from a re-analysis of the deposited data

Results flagged for a closer look

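In 20 groups of 9 or 5 libraries (8 levels and 2 arm ratios at 12 and 15 months), 1 value stood apart from the rest of its group. miR-30e-5p in replicate 3 at 15 months was 314 CPM, and the next library was at 236 CPM, a gap of 0.727 of the range of the 5 libraries. Chance sets apart about 1 in 20 groups.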

How the results depend on the processing

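The 4 members lower at 13.5 than at 12 months were called under every alternative except the plain library total without TMM, which called 3. That scaling keeps miR-486 in the total and moved the median of all microRNAs by -0.19 for 13.5 against 12 months and by -0.50 for 15 against 13.5 months. The microRNAs called higher and lower were then 2 and 8, beside 18 and 20, in the first comparison and 0 and 22, beside 14 and 20, in the second. With the total outside miR-486 they were 9 and 18, and 12 and 8. Under the plain total 2 members passed the age test and 0 were called for 15 against 13.5 months, where miR-30e-5p was at -0.032. Without a filter 2 members were called for 15 against 13.5 months.

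For 16.5 against 12 months, 2 members were called by DESeq2 and by edgeR with 1 or 2 RUVs factors, 3 by DESeq2 with 1 factor, 1 with the filter at 1 read, and up to 3 when the TMM reference was changed. For 16.5 against 15 months, 1 was called with 2 RUVs factors and up to 1 with another TMM reference. Leaving out 1 library, of 15 months or replicate 1 at 13.5 months, gave 1 to 2 calls in the first and 0 to 1 in the second. With both arms above 100 reads only the miR-30a precursor could be tested, and 1 was called. Except where stated, the cause was not tested.

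Deviations of same-numbered libraries had a mean correlation of -0.035 (44 pairs, -0.86 to 0.83). This cannot decide whether a number marks the same mouse, since no libraries known to share a mouse were at hand for comparison. Fits with a replicate block called 5 members with age, 4 for 13.5 against 12 months, 5 for 15 against 13.5 months, 0 for 16.5 against 15 months and 2 for 16.5 against 12 months, and 2 precursors and 9 pairs were called. No 2 libraries of one age (167 pairs) agreed within sampling noise. Few reads limit the 3p arms.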
